A study of Mus musculus with 6 samples.

Results

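The antiviral effectors described here are 10 genes that are single members of the interferon-induced defence of the cell: Mx1, Mx2, Rsad2, Cmpk2, Bst2, Samhd1, Ifi44, Ifi35, Zc3hav1 and Xaf1. They were picked by symbol, out of the 55401 mouse Ensembl genes in the deposited count table, and the choice was selected on earlier values of the same comparison, in which these genes were already known to be lower with miR-497. Their fold changes are therefore given as a description, without p-values. All 10 passed the filter on low counts and were among the 14661 genes tested. Mx1 passed it through the NC group alone, since it had 3 to 9 counts in each miR-497 library. The other gene lists used below were also chosen with earlier results of these data known. Their counts of calls and p-values therefore describe these libraries and are no independent support.

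RNA was sequenced from ADC106, a mouse angiosarcoma line, that is, a line from a malignant tumour of vessel-lining cells. The 3 NC libraries came from cells labelled WT that received a mimic labelled NC, and the 3 miR-497 libraries from cells labelled as overexpressing miR-497 after transfection of the miR-497 mimic. Both mimics were given at 12.5 nM, RNA was taken after 3 days, and no other agent or allele is named in the labels. Cells without any mimic were not analysed here, so each value below compares 2 groups of transfected cells. The labels do not say whether the 3 libraries of a group came from separate cultures, and p-values then measure only the spread between these libraries.

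A type I interferon binds its receptor, the attached Jak kinases phosphorylate Stat transcription factors, and these join Irf9 in a complex that binds interferon-stimulated response elements in promoters. The products of the genes switched on in this way act at different steps of infection. Mx proteins are dynamin-like GTPases that trap viral nucleoprotein complexes, viperin (Rsad2) makes a chain-terminating nucleotide, tetherin (Bst2) holds budding virus at the cell surface, Samhd1 depletes deoxynucleotides, and Zc3hav1 (ZAP) binds CpG-rich viral RNA.

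Totals ran from 25777676 to 36159499 counts per library. Of 12 endothelial markers, all 12 were tested, 7 rose and 3 fell, beside 23.8% higher and 26.0% lower among all genes tested. Their summed level was 9558 to 10289 CPM (counts scaled to a common library size with TMM factors) with NC and 9506 to 9901 with miR-497. Of 10 immune cell markers, Itgam, Cd3e and Siglech had 0 counts in all 6 libraries, and Ptprc had 4 to 7 counts per library. Of the 4 tested, Cd68 rose and 3 did not pass, namely Csf1r, Flt3 and Cd14, at 19 to 37, 13 to 31 and 62 to 89 counts per library. The summed level was 12.7 to 13.1 CPM with NC and 18.5 to 24.2 with miR-497, of which Cd68 made up 8.25 ± 0.197 and 17.5 ± 2.39 (SD, n = 3). The 8 fibroblast and mural markers, with Lum at 0 counts, summed to 209 to 219 CPM with NC and 261 to 309 with miR-497; of the 6 tested, Col1a1 (61.7 and 110.4 CPM) and Acta2 (37.1 and 70.3 CPM) rose, Pdgfrb (52.8 and 40.8 CPM) fell and 3 did not pass. Mitochondrially encoded genes took 2.03% to 2.15% of counts with NC and 2.94% to 3.77% with miR-497. The part of these shifts in the results below was not tested, and in bulk RNA fewer cells expressing a gene cannot be told apart from less RNA per cell.

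The sequence features of the 10 genes were not used to choose them. The mature guide strand of miR-497 is given with that of miR-195a, a neighbour that shares its seed (bases 2 to 8, in capitals); both are from RefSeq on GRCm38.p6 (chr11:70234730-70234751 and chr11:70235062-70235082, plus strand).
mmu-miR-497a-5p: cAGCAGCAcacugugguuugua
mmu-miR-195a-5p: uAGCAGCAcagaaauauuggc
Matches to this seed, TGCTGCT or GCTGCTA, were found in the longest annotated 3' UTR of 2 of the 10 effector genes, Mx1 and Rsad2, or 20%. The share was 28.1% of the 12860 tested genes with a 3' UTR, and 24.5% of the 143 such genes with a fold change of at least 4-fold lower. Those 143 include Mx1, Mx2, Rsad2, Cmpk2 and Ifi44, so their share is not separate from that of the effectors. In Mx1 the match lay at base 48 of a 3' UTR of 1105 bases (chr16:97448088-97448094, minus strand). In Rsad2 it was a repeat that holds overlapping matches at bases 548 and 551 of 2660 (chr12:26444849-26444858, minus strand). The windows below show the matches in capitals, and the last 2 lines are overlapping stretches of Rsad2.
Mx1: tgcaatgatcctttaGCTGCTA
Rsad2, first match: ggtcccagcctctgaTGCTGCTg
Rsad2, next match: cccagcctctgatgcTGCTGCTt
No 8-base match, which has both features, was present in any of the 10 (4.61% of the genes tested), and Mx2, Cmpk2, Bst2, Samhd1, Ifi44, Ifi35, Zc3hav1 and Xaf1 had no match. A match describes letters only and is no measure of binding. The median longest 3' UTR was 1583 bases in the 10 genes and 1187 bases in the genes tested.

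Promoters, from 250 bases before to 50 after the annotated start, were given by RefSeq (GRCm38.p6) for 8 of the 10 genes, all but Mx1 and Mx2. The core of the interferon-stimulated response element, GAAANNGAA on either strand, occurred in 3 of these 8 windows (37.5%), those of Bst2, Ifi44 and Rsad2. It was present in 8.56% of all 32851 promoter windows, in 8.90% of 10816 tested genes with a window and in 34.5% of the 116 such genes that were at least 4-fold lower. Those 116 include Rsad2, Ifi44 and Cmpk2, so their share is not separate from that of the effectors. The form with C at the fifth base, GAAACNGAA, was in 1 of the 8, Bst2, and in 1.88% of all windows. These 3 stretches, with the matches in capitals, show that the element started 130 and 124 bases before the start of Bst2 (2 overlapping matches, chr8:71537573-71537617, minus strand), 3 bases before that of Ifi44 (chr3:151749890-151749928, minus strand) and 119 bases before that of Rsad2 (chr12:26456548-26456586, minus strand).
Bst2: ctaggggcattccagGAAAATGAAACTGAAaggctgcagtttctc
Ifi44: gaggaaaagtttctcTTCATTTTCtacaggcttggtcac
Rsad2: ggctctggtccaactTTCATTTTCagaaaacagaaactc
The other windows, of Cmpk2, Ifi35, Samhd1, Xaf1 and Zc3hav1, did not hold these letters. For Cmpk2, Xaf1 and Zc3hav1 the window was set on a start that lies inside the RefSeq gene. That of Zc3hav1 (chr6:38354554-38354853, minus strand) lay wholly inside the gene, which begins at base 38355352. For Ifi44 and Samhd1, the gene in GENCODE M21 begins further out, at bases 151749960 and 157135265, so the Ifi44 match lies inside the gene there. The promoters at the outer starts of all these genes were therefore searched in part or not at all.

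All 10 effector genes were lower with miR-497, with all 3 miR-497 values under all 3 NC values in each. They ranged from Mx1, at 3.40% of its NC level, to Zc3hav1, at 54.7%. Over the whole table, 26.0% of tested genes were called lower at an edgeR quasi-likelihood adjusted p under 0.05, and 29.6% had all 3 miR-497 values under all 3 NC values. At least 2-fold lower past the threshold were 8 of the 10 genes, against 5.19% of all genes tested. Since the genes were proposed from this comparison, nothing is read from these counts. A log2 ratio is the fitted log2 fold change, miR-497 over NC. The median log2 fold change was -1.93 in the 10 genes and -0.02 in all genes tested.

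**Figure D1:**
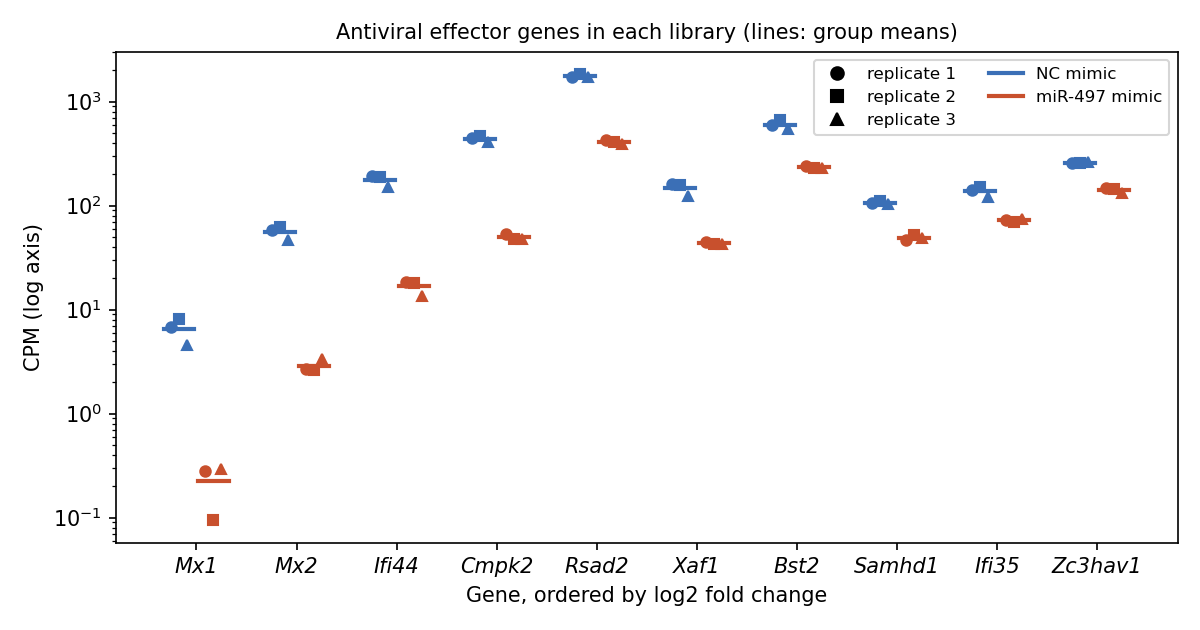
Level of the 10 effector genes in each library, in CPM on a log axis; symbols give the replicate number, blue is NC, red is miR-497 and lines are group means. In every gene the 3 red points lie below the 3 blue points, and the gap is widest for Mx1 and Mx2 and narrowest for Ifi35 and Zc3hav1.

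The Mx GTPases showed the largest differences. Mx1 (ENSMUSG00000000386, chr16:97447035-97462907) stood at 6.82, 8.11 and 4.62 CPM with NC and at 0.279, 0.0944 and 0.295 CPM with miR-497 (libraries 1 to 3, the order used throughout). These levels rest on 226, 296 and 130 counts and on 7, 3 and 9 counts. The groups did not overlap, and Mx1 had the widest spread between replicates of the 10 genes in both groups, with a coefficient of variation of 27.1% with NC and 50.03% with miR-497. Its log2 fold change was -4.88 (SE 0.358). The ratio of summed counts, 652 to 19 on scaled library sizes, was 30.7 in favour of NC, with a 95% exact binomial interval from 19.5 to 51.2 that covers counting error only.

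Mx2 (ENSMUSG00000023341, chr16:97535308-97560900) was at 58.3, 62.7 and 47.1 CPM with NC and at 2.67, 2.64 and 3.35 CPM with miR-497. The highest miR-497 value was 7.10% of the lowest NC value, and the log2 fold change was -4.28 (SE 0.126). Mx1 and Mx2 lie head to head on chromosome 16, 72.4 kb apart, with 4 annotated genes between them, of which Fam3b is the single protein-coding one. In RefSeq on GRCm38.p6 both are transcribed pseudogenes, while GENCODE M21 has Mx1 as protein coding and Mx2 as a polymorphic pseudogene; many laboratory strains carry defective alleles of both, and the strain behind ADC106 is not given in the labels. The 2 genes are related in sequence, and how reads that align to both were handled is not given in the sources used here.

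Viperin and its neighbour Cmpk2 act on nucleotides. Rsad2 (ENSMUSG00000020641, chr12:26442746-26456452) had the most counts of the 10 genes, at 1705, 1849 and 1732 CPM with NC and 425, 411 and 394 CPM with miR-497. The replicates were close, with coefficients of variation of 4.35% and 3.87%, and the groups were far apart. The log2 fold change was -2.10 (SE 0.0597), which leaves 23.3% of the NC level.

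Cmpk2 (ENSMUSG00000020638, chr12:26469204-26479837) encodes a mitochondrial UMP/CMP kinase. It was at 448, 463 and 404 CPM with NC and at 53.1, 48.2 and 47.8 CPM with miR-497, a log2 fold change of -3.14 (SE 0.0668). The highest miR-497 value was 13.1% of the lowest NC value. Rsad2 and Cmpk2 also lie head to head, on chromosome 12, with 12.8 kb and no annotated gene between them. Per length, Rsad2 exceeded Cmpk2 by 3.65, 3.84 and 4.11 times with NC and by 7.69, 8.20 and 7.91 times with miR-497. The ratio of the neighbours did not overlap between groups.

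Bst2 and Samhd1 are restriction factors that act on budding particles and on deoxynucleotide pools. Bst2 (ENSMUSG00000046718, chr8:71534255-71537456) was at 592, 663 and 544 CPM with NC and at 242, 232 and 230 CPM with miR-497. The miR-497 libraries were nearly level, while NC library 2 was the highest and NC library 3 the lowest. The log2 fold change was -1.35 (SE 0.0665).

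For Samhd1 (ENSMUSG00000027639, chr2:157097533-157135265), the values were 107, 110 and 104 CPM with NC and 46.5, 52.5 and 48.3 CPM with miR-497. The log2 fold change was -1.12 (SE 0.0628), or 45.9% of the NC level. The NC libraries differed little, with a coefficient of variation of 2.90%.

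Ifi44, Ifi35 and Xaf1 are induced by interferon, and their roles in defence are less direct. Ifi44 (ENSMUSG00000028037, chr3:151730922-151749960) was at 193, 188 and 151 CPM with NC and at 18.5, 18.1 and 13.6 CPM with miR-497, so that library 3 was the lowest in both groups. Its log2 fold change was -3.41 (SE 0.110). Its relative Ifi44l had 1 count in all libraries together.

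Xaf1 (ENSMUSG00000040483, chr11:72301629-72313733) encodes a factor that binds Xiap, an inhibitor of caspases. It was at 160, 157 and 124 CPM with NC and 44.7, 42.9 and 42.6 CPM with miR-497, a log2 fold change of -1.76 (SE 0.0818). NC library 3 stood below the other NC libraries and still well above every miR-497 library. Xiap itself did not pass the test, at 152 ± 10.2 and 146 ± 13.5 CPM (SD, n = 3), with a log2 ratio of -0.06 (SE 0.0673, adjusted p = 0.479 by edgeR).

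Ifi35 (ENSMUSG00000010358, chr11:101448407-101458698) forms complexes with Nmi. Its values were 141, 151 and 121 CPM with NC and 73.1, 70.1 and 74.5 CPM with miR-497, with a log2 fold change of -0.93 (SE 0.0716). The highest miR-497 value was 61.7% of the lowest NC value, the narrowest gap of the 10 genes. An antisense gene, Gm11626, covers 290 of its exon bases (16.8%) and had 0 counts in all 6 libraries. Nmi fell from 88.8 ± 7.12 to 36.3 ± 2.56 CPM (SD, n = 3), with a log2 ratio of -1.29 (SE 0.0752, adjusted p = 5.4e-10 by edgeR).

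Zc3hav1 (ENSMUSG00000029826, chr6:38305286-38354603) had the smallest difference in log2 fold change. It was at 255, 258 and 262 CPM with NC, the closest NC values of the 10 genes with a coefficient of variation of 1.39%, and at 148, 145 and 132 CPM with miR-497. The log2 fold change was -0.87 (SE 0.0548).

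Levels were compared between genes as reads per kilobase of annotated exon at the same scaling (RPKM). With NC the order was Bst2, Rsad2, Cmpk2, Ifi35, Zc3hav1, Xaf1, Ifi44, Mx2, Samhd1 and Mx1, from 664 ± 66.3 RPKM for Bst2 and 406 ± 17.7 for Rsad2 to 11.7 ± 0.339 for Samhd1 and 1.72 ± 0.466 for Mx1 (SD, n = 3). Xaf1 and Ifi44, at 31.4 ± 4.22 and 28.9 ± 3.81 RPKM, were the only neighbours in this order whose libraries overlapped. With miR-497 no neighbours overlapped. Bst2, at 260 ± 7.29 RPKM, and Rsad2, at 94.6 ± 3.66, kept the first ranks. Cmpk2 went from the third rank, at 105 ± 7.28 RPKM, to the fifth, at 11.9 ± 0.708, behind Ifi35 (79.8 ± 9.01 and 42.0 ± 1.30) and Zc3hav1 (39.7 ± 0.551 and 21.7 ± 1.29). Samhd1 passed Ifi44 and Mx2, as its level went to 5.37 ± 0.339 RPKM and theirs to 2.73 ± 0.447 and 0.798 ± 0.111. In RPKM, Bst2 was at or above 99.7% of tested genes with NC and 99.1% with miR-497, and Mx1 at or above 33.6% and 1.89%. Lengths are the union of annotated exons, retained introns included, so these levels depend on the annotation.

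**Figure D2:**
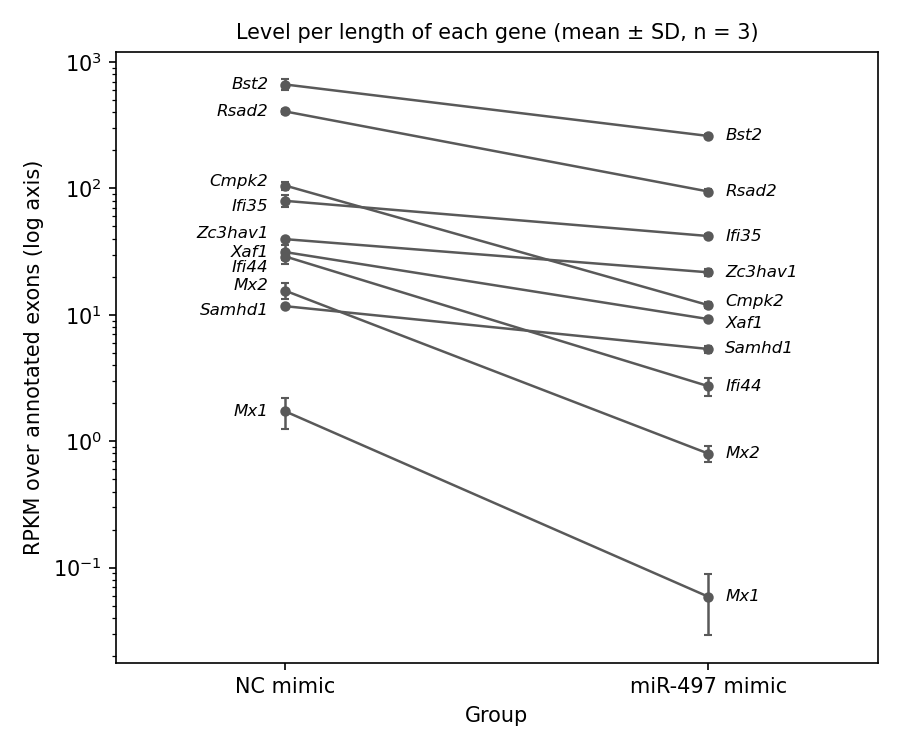
Mean level per length of each effector gene with NC and with miR-497, in RPKM on a log axis, with SD bars (n = 3). Lines slope down for all 10 genes, and the lines of Cmpk2, Ifi44 and Mx2 cross those of genes with smaller differences.

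Within the NC group, NC library 2 held the highest NC value of 7 of the 10 genes, and NC library 3 the lowest value of 8 of the 10, the exceptions being Rsad2 and Zc3hav1, which were lowest in library 1. The miR-497 group was more mixed, as library 1 held the highest value of 6 genes and the lowest of 1, and library 3 the lowest value of 6 and the highest of 3. Summed over the 10 genes, the level was 3667, 3911 and 3494 CPM with NC and 1054, 1023 and 986 CPM with miR-497. Rsad2 made up 46.5% to 49.6% of that sum with NC and 39.9% to 40.3% with miR-497. Relative to the NC mean, the median of the 10 genes lay at 0.04, 0.10 and -0.16 on the log2 scale with NC and at -1.88, -1.93 and -1.97 with miR-497. In these genes, which were chosen on this comparison, the spread among NC libraries was a small part of the distance between groups.

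**Figure D3:**
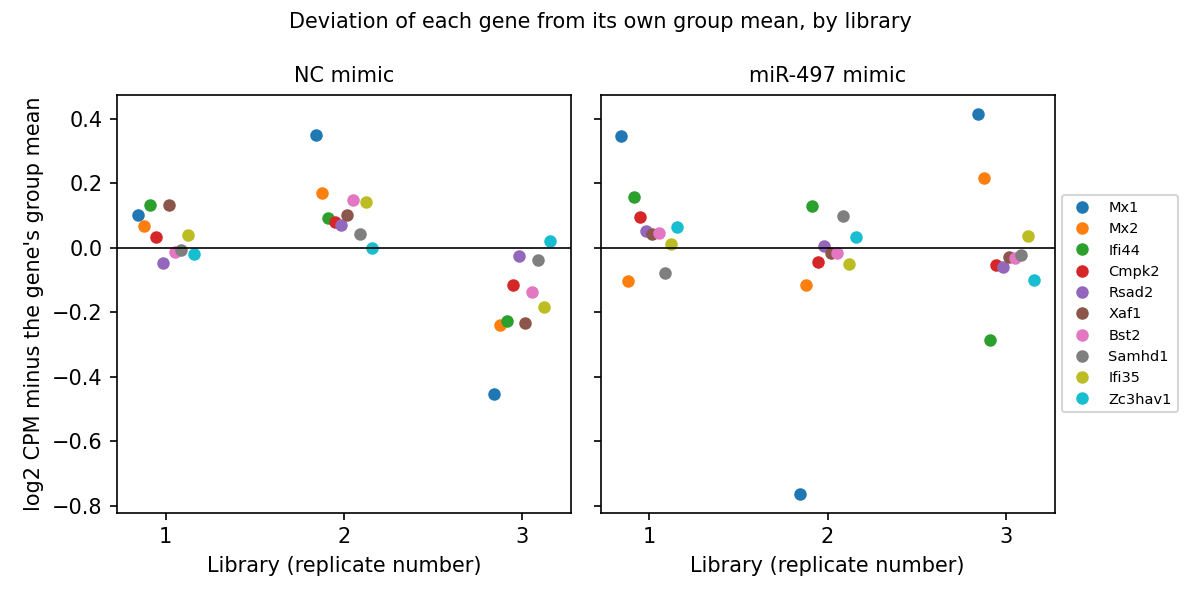
Deviation of each effector gene from the mean of its own group, in log2 CPM, by library, with 1 colour per gene. In NC library 3 all genes but Zc3hav1 lie below 0, and the widest points in both panels belong to Mx1.

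Transcripts of the listed interferon genes were near or at the detection limit. The list held Ifna1, Ifna2, Ifna4 and Ifna5 and no other Ifna gene, and how multiply aligned reads were handled is not given. Of 11 listed ligand genes, 7 had 0 counts in all libraries, where a count of 0 allows up to 3 counts, and none passed the filter for testing. Ifnb1 had 9, 26 and 4 counts with NC and 0, 7 and 0 with miR-497. Ifna4 had 2, 11 and 5 counts with NC and 0 in each miR-497 library. All 11 together gave 11, 40 and 9 counts with NC and 2, 7 and 0 with miR-497. NC library 2, with the most ligand counts, was also the library in which 7 of the 10 effectors were highest, a description over 3 libraries. The miR-497 group did not share this, as its library 2 had the most ligand counts (7) but the highest value of 1 effector and the lowest of 3.

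Receptors and kinases did not share the direction of the effectors. As this list and those that follow were chosen with earlier results known, their calls and p-values are descriptive. Of 9 tested, 5 rose and 1 fell at an edgeR adjusted p under 0.05, beside 23.8% higher and 26.0% lower among all genes tested. The list's median log2 fold change was 0.18. Ifnar1, 1 of the 5, had a log2 ratio of 0.18 (SE 0.0605, adjusted p = 0.021 by edgeR). It did not pass without NC library 1, NC library 2 or miR-497 library 2 (edgeR adjusted p = 0.088 to 0.15). Ifnar2, a subunit of the type I interferon receptor, rose from 16.8 ± 0.503 to 21.7 ± 1.92 CPM (SD, n = 3), with a log2 ratio of 0.37 (SE 0.0918, adjusted p = 0.0032 by edgeR). Ifngr1 and Ifngr2, the subunits of the interferon gamma receptor, rose by 0.30 and 0.36 on the log2 scale. Ifnlr1, at 12 to 58 counts per library, had a log2 ratio of 1.36 (SE 0.417, adjusted p = 0.012 by edgeR), which did not hold without miR-497 library 3 (1.045, adjusted p = 0.095 by edgeR). Jak2, the kinase tied to the gamma receptor, fell from 167 ± 4.68 to 84.5 ± 2.57 CPM (SD, n = 3), with a log2 ratio of -0.98 (SE 0.0518, adjusted p = 1.8e-10 by edgeR). For Jak1 and Tyk2, the kinases of the type I receptor, the log2 fold changes were -0.05 (SE 0.0545) and -0.0008 (SE 0.223), and neither passed the test.

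Among transcription factors of the pathway, Irf7, which amplifies interferon production, fell from 79.4 ± 8.07 to 10.8 ± 1.28 CPM (SD, n = 3), with a log2 ratio of -2.87 (SE 0.0971, adjusted p = 8.3e-13 by edgeR). Stat2 fell from 161 ± 11.8 to 40.5 ± 1.45 CPM (SD, n = 3), with a log2 ratio of -1.99. Irf9, its partner in the complex that binds the element, and Irf5 fell as well, with log2 ratios of -1.21 and -1.17. Irf2 was at 59.4 ± 5.95 and 62.1 ± 1.503 CPM and did not pass the test, and Irf8 had 0 counts. Among the 10 effectors, Mx1, Mx2, Ifi44 and Cmpk2 had lower fold changes than Irf7, Stat2, Irf9 and Irf5, and Xaf1, Bst2, Samhd1, Ifi35 and Zc3hav1 had higher ones than Irf7 and Stat2.

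Sensors of viral nucleic acid were listed with their adaptors and kinases. Of these 13 genes 9 fell and 3 rose, beside 26.0% lower and 23.8% higher among all genes tested. The list's median log2 fold change was -0.91. Zbp1 had the largest fall, from 5.60 ± 0.202 to 0.448 ± 0.164 CPM (SD, n = 3), with a log2 ratio of -3.66 (SE 0.284, adjusted p = 1.7e-08 by edgeR). The RIG-I-like receptors Dhx58, Ifih1 and Ddx58 fell, with log2 ratios of -2.86, -2.30 and -1.42, as did the DNA sensor Cgas (-1.12). Those that rose were the adaptors Mavs and Ticam1 and the kinase Ikbke, by 0.37 to 0.57. Of 6 regulators that limit the response, 3 fell and 1 rose, beside the same 26.0% and 23.8%, with a median log2 fold change of -0.26. Usp18, which removes Isg15 and blocks receptor signalling, fell from 115 ± 6.52 to 10.1 ± 2.23 CPM (SD, n = 3), with a log2 ratio of -3.51 (SE 0.114, adjusted p = 5.1e-13 by edgeR). Socs3 fell by 0.43. Socs1 (-0.55) and Cish (1.347) passed with all libraries; Socs1 had edgeR adjusted p-values of 0.092 to 0.13 without NC library 2, miR-497 library 2 or miR-497 library 3, and Cish of 0.052 to 0.055 without NC library 3, miR-497 library 1 or miR-497 library 3.

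**Figure D4:**
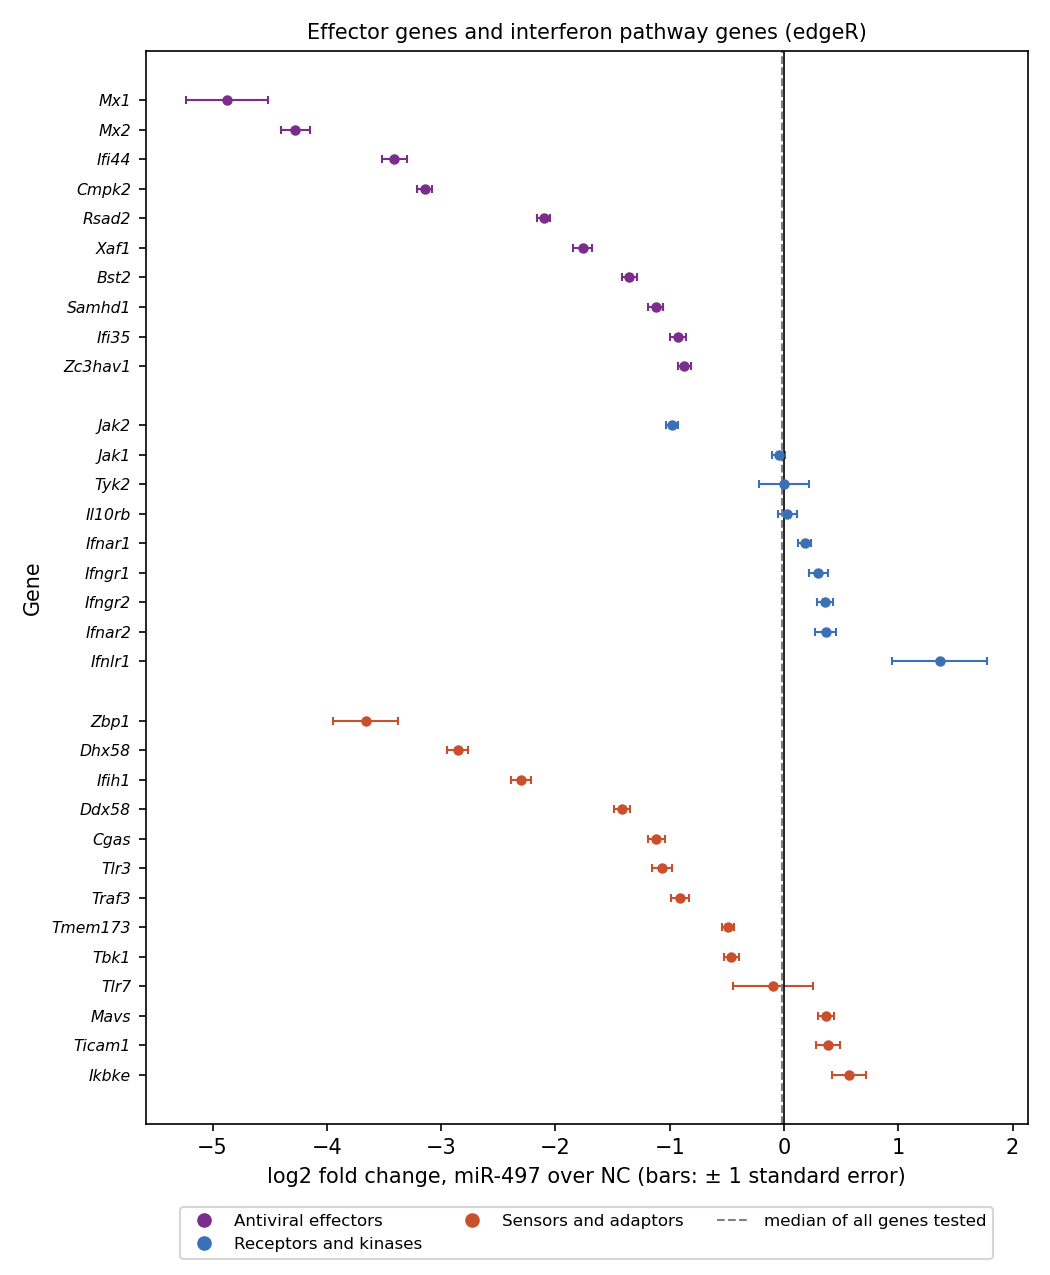
Log2 fold change (miR-497 over NC, ± 1 standard error, edgeR) of the 10 effectors, then of the tested receptors and kinases, and sensors and adaptors; the dashed line is the median of all genes tested. All effectors lie left of 0, and most receptors and kinases lie at or right of it.

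Other single-gene restriction factors were examined as a list of 23, of which 22 were matched by symbol and 21 tested. Lower values passed the test in 17 and higher ones in 2, beside 26.0% lower and 23.8% higher among all genes tested. The median log2 fold change was -1.17. The largest falls were in Phf11d (-2.67), Isg20, an exonuclease of RNA (-2.59), Mov10, an RNA helicase (-2.57), Rtp4 (-2.28) and Trim21, a cytosolic antibody receptor (-2.26), with edgeR adjusted p-values from 3.1e-13 to 2.4e-10. Mov10 went from 144 ± 7.15 to 24.2 ± 2.89 CPM and Isg20 from 16.1 ± 1.41 to 2.69 ± 0.260 CPM (SD, n = 3). Serinc5 and Ifitm2 were the higher ones, by 0.40 and 0.25. Ifitm2, which has close relatives, no longer passed without NC library 1, NC library 2, miR-497 library 1 or miR-497 library 3 (edgeR adjusted p = 0.06 to 0.13). Apobec3, at 88.1 ± 7.41 and 81.3 ± 7.70 CPM, did not pass (log2 ratio -0.12, SE 0.0749, adjusted p = 0.21 by edgeR), but did without miR-497 library 1 (-0.20, adjusted p = 0.046 by edgeR).

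Relatives and partners of the effectors fell in 10 of 16 tested cases and rose in 2, beside 26.0% lower and 23.8% higher among all genes tested. Their median log2 fold change was -0.52. Parp12, a relative of Zc3hav1 induced by interferon, fell from 226 ± 0.860 to 52.3 ± 5.28 CPM (SD, n = 3), with a log2 ratio of -2.12 (SE 0.0657, adjusted p = 3.1e-13 by edgeR), whereas Zc3hav1l rose by 0.60. The cofactors of Zc3hav1 named Trim25, Khnyn and N4bp1 fell, with log2 ratios of -0.70, -0.37 and -1.18. Dnm2, a dynamin of endocytosis and a distant relative of the Mx proteins, rose from 179 ± 1.603 to 265 ± 9.95 CPM (SD, n = 3), with a log2 ratio of 0.57 (SE 0.0509, adjusted p = 9.8e-08 by edgeR). The related Dnm3 and Dnm1l fell, with log2 ratios of -0.65 and -0.51, while Dnm1 (0.32) and Opa1 (-0.10) did not pass. Cmpk1, the cytosolic counterpart of Cmpk2, fell by 0.74. The iron-sulphur assembly factor Ciapin1 fell by 0.86, while Ciao1, which delivers the cluster to viperin, had a log2 ratio of 0.14 (SE 0.0665, adjusted p = 0.086 by edgeR). With upper-quartile scaling Dnm1 and Ciao1 passed as higher (adjusted p = 0.038 and 0.024 by edgeR).

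Deoxynucleotide metabolism, the substrate side of Samhd1, was lower in 6 and higher in 4 of 12 tested genes, beside 26.0% lower and 23.8% higher among all genes tested, with a median log2 fold change of -0.25. Of the subunits of ribonucleotide reductase, Rrm2 and Rrm1 fell, with log2 ratios of -0.73 and -0.54, and the alternative small subunit Rrm2b rose by 0.37. Dctd (-0.65) and Tyms (-0.58) fell as well. Nme2 had the largest rise, from 7.86 ± 1.55 to 23.4 ± 1.37 CPM (SD, n = 3), with a log2 ratio of 1.57 (SE 0.125, adjusted p = 2.6e-08 by edgeR); it lies beside the near-identical Nme1, so the split of reads between them is uncertain. Samhd1, at -1.12, was thus further from 0 than each of the genes of this list that fell.

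Genes outside the 10 with the most similar profile were ranked by the root mean square difference of log2 CPM, centred on the NC mean, from the median profile of the effectors over the 6 libraries. The closest was Stat2, with a difference of 0.0555, followed by Irgm1 (0.116), H2-K1 (0.139), Lgals3bp (0.142), Tor3a (0.149) and Slfn9 (0.153). Their log2 fold changes ran from -2.14 to -1.75. Irgm1, H2-K1 and Slfn9 belong to multigene families, which makes their counts uncertain.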

How the data were processed

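Per the labels' protocols, poly(A)-enriched libraries were made from total RNA. The deposited values are raw counts per Ensembl gene that the authors had not normalized, per the file headers and values. Per the submitters' processing notes, STAR 2.5.4b, featureCounts, Subread 1.6.1, edgeR 3.32.1 and GRCm38 were used. The annotation release, the strand setting and the handling of multiply aligned reads are not given in the sources used here.

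Groups and replicate numbers came from the titles. Symbols, exon lengths and 3' UTRs came from GENCODE M21 (GRCm38), which matched 55141 of 55401 identifiers. Groups were compared in R 4.3.3 by edgeR 4.0.16: filterByExpr at its defaults (counts of 10 and 15), TMM scaling, glmQLFit and glmQLFTest with the group as the only term, and Benjamini-Hochberg adjustment over 14661 genes at a threshold of 0.05. The standard error is the log2 fold change divided by the square root of F. Log2 CPM profiles used a prior count of 2. Tables were made in Python 3.11.15 with pandas 2.3.3. The fit was also run on simulated counts with far fewer changed genes than were called here, and nothing is read from that run.

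The members and lists were chosen with earlier results of these data known. Named genes were all 10 effectors, up to 5 per list with the largest change among those past the threshold, and the 6 nearest profiles (mean log2 CPM of at least 2); others were named after their values were seen. Alternatives were DESeq2 1.42.0 size factors and Wald test, upper-quartile scaling, limma 3.58.1 voom, 2 count filters, the replicate block, and each library left out. 1 listed transcription factor is not reported here, nor is the count over its list.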

Additional observations from a re-analysis of the deposited data

How the results depend on the processing

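Over 13 alternatives the effectors are described by their range alone, since they were chosen on this comparison. Mx1 moved most, from -5.17 to -4.49 on the log2 scale across the fits that left out 1 library. Among the 39 other genes named by rule, calls were lost in some settings for Ifnlr1, Socs1 and Cish. Outside that rule, Ifnar1, Ifitm2, Tk2, Dut, Cdh5 and Tie1 lost calls in some settings. With the replicate block, 3563 genes were lower and 3177 higher, and the block ended no call among the 39 other genes named by rule. Among the endothelial markers, the block ended the calls of Cdh5 and Tie1 as higher (edgeR adjusted p = 0.069 and 0.098). The deviations of same-numbered libraries had correlations of -0.119, -0.0351 and -0.133 across genes, against -0.0348 to 0.158 for other pairs. With 3 libraries per group, these values cannot decide whether libraries of equal number were handled together, and the labels do not say.

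Over all alternatives 3374 to 3995 genes were lower and 3029 to 3998 higher. Leaving out 1 library gave 0 to 1 higher negative regulators (0 without NC library 3, miR-497 library 1 or miR-497 library 3) and 1 to 2 higher restriction factors (Ifitm2 was lost, leaving 1, without NC library 1, NC library 2, miR-497 library 1 or miR-497 library 3). A mean count of at least 50 gave 0 higher negative regulators, since fewer genes are tested, and upper-quartile scaling gave 4 higher relatives and partners, with Dnm1 and Ciao1 added; the cause was not tested. Seed matches were found in 0 effectors when only 8-base sites counted and in 1 with the shortest 3' UTR, and the stricter response element was in 1. Depth limits Mx1 (3 to 9 counts with miR-497) and the listed interferon genes.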
